A study of Rattus norvegicus with 12 samples.

Results

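The genes that encode the proteins of the mitochondrial ribosome were followed in RNA of isolated mitochondria and of whole muscle from the same rats. A gene was counted as a member when its name consisted of Mrpl or Mrps, a number and at most 1 further letter. This gave 73 of the 30560 genes in the table, 43 with an Mrpl name (large subunit) and 30 with an Mrps name (small subunit), and 1 name, Mrpl42, stood on 2 rows. The 12 libraries comprised 6 of mitochondria that had been pulled out of fresh muscle by immunoprecipitation and then treated with RNaseA + ProteinaseK, and 6 of untreated whole muscle from snap-frozen tissue. The rats were 6 wild-type males of the Wistar Kyoto strain, 9 weeks old, and each gave 1 library of each kind from its gastrocnemius (inner red part), which is a muscle of the calf. The aim stated in the series title was to find RNAs of nuclear origin located in muscle mitochondria.

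The mitochondrial ribosome translates the few mRNAs of the mitochondrial genome, which encode core parts of the complexes of oxidative phosphorylation. Its RNAs are made inside the organelle, whereas its proteins are encoded in the nucleus, translated on cytosolic ribosomes and imported. Some members have counterparts in bacterial ribosomes and others are found in mitochondrial ribosomes alone. Names do not always give the place: in mammals Mrps30 and Mrps18a were later assigned to the large subunit, and Mrps36 to the oxoglutarate dehydrogenase complex.

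The table held 720111 to 1785865 counts per mitochondria library and 24309444 to 32055355 per muscle library, so a member had a median of 21 counts per library in mitochondria and 519 in muscle. Values are given as CPM, counts per 1000000 gene counts of a library. CPM rises with transcript length, and no transcript lengths of this build were used, so CPM values of different genes describe shares of reads and not levels per length. The mitochondrial genome took 12.9% to 51.5% of the counts in mitochondria libraries and 26.4% to 35.9% in muscle libraries. All 9 skeletal muscle fibre markers in the table, Acta1 and Ckm among them, were lower in mitochondria, with a summed 1346 to 3469 CPM there and 152072 to 216107 CPM in muscle. Of the 15 markers of other cells of muscle tissue, 7 were higher and 6 lower in mitochondria, where 84.3% and 9.03% of all genes tested were higher and lower, and they summed to 611 to 1023 CPM in mitochondria and 2115 to 5712 CPM in muscle, and none of them was at 0 in either group. The part of these cells in the values below was not tested. Marker levels in libraries of isolated mitochondria do not give numbers of cells. In bulk muscle RNA, the number of cells of a type and the RNA per cell cannot be told apart.

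Taken as a group, the mitochondrial ribosomal protein genes held a slightly smaller share of reads in mitochondria than in muscle. Their summed level had a lowest value of 851, a median of 1234 and a highest value of 1698 CPM in mitochondria, against 1550, 1636 and 1711 CPM in muscle. Mitochondria replicate 3 lay within the muscle range and the other 5 lay below it. The order of the extremes followed the share of the mitochondrial genome, which was 51.5% in mitochondria replicate 4 with the lowest sum and 12.9% in replicate 3 with the highest. Per 1000000 nuclear counts, the sums ran from 1754 to 1950 in mitochondria and from 2131 to 2572 in muscle, and the groups did not overlap. Between replicates, the sum varied by 24.0% of its mean in mitochondria when scaled to all counts and by 4.81% when scaled to nuclear counts, against 3.54% and 6.65% in muscle. The sums in mitochondria were 0.769 times those in muscle by CPM and 0.775 times when scaled to nuclear counts.

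**Figure D1:**
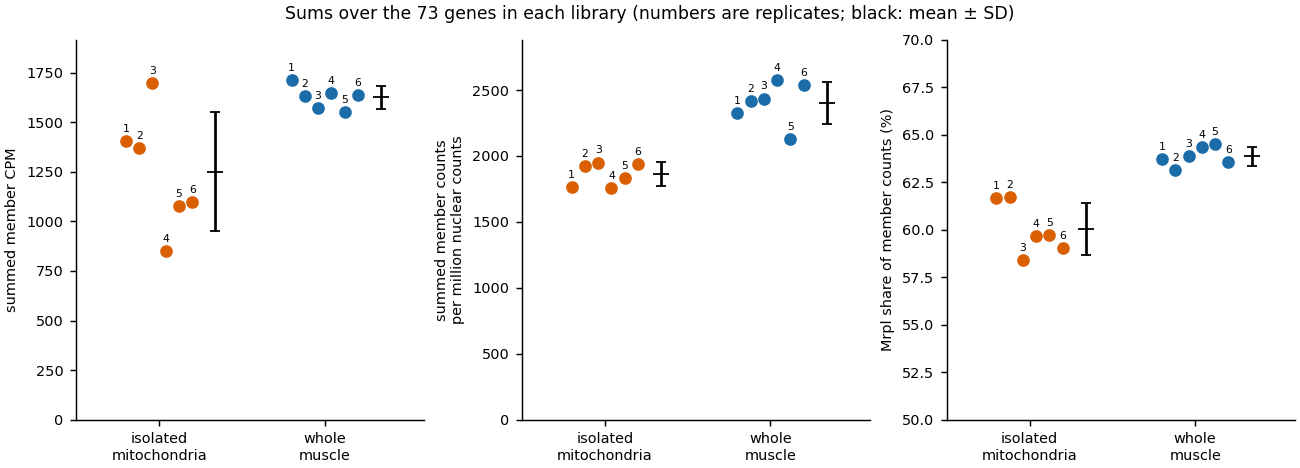
Sums over the 73 genes per library: CPM, counts per 1000000 nuclear counts, and the Mrpl share in percent (this axis starts at 50). Points are libraries numbered by replicate, orange for mitochondria and blue for muscle, with mean ± SD in black. Scaled to nuclear counts, the mitochondria libraries lie between 1754 and 1950 and the muscle libraries between 2131 and 2572.

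The Mrpl genes took 58.4% to 61.7% of the members' counts in mitochondria, with a median of 59.7%, against 63.1% to 64.5% in muscle, with a median of 63.8%. The ranges did not overlap, and this share does not depend on scaling. The gap between the ranges rested on Mrpl12 and Mrpl54, which stood first and second by muscle CPM of the Mrpl genes. Without these genes, in a comparison chosen after seeing the data, the Mrpl share was 57.4% to 60.9% in mitochondria, with a median of 58.7%, against 59.2% to 60.5% in muscle, with a median of 59.6%. The ranges then overlapped, and the share was lower in mitochondria in 4 of 6 rats. The summed Mrpl genes were at 0.723 times their muscle CPM and the summed Mrps genes at 0.850 times.

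Single genes moved in both directions. Of the 73 members, 72 passed the filter on low counts and Mrps21l did not. Scaled to total counts, 16 were higher in mitochondria, where 84.3% of all 24679 genes tested were higher, and 26 were lower, where 9.03% of all genes tested were lower (edgeR quasi-likelihood test, adjusted p under 0.05). The median log2 fold change was -0.16 over the members and 4.61 over all genes tested, and 71 of the 72 members lay below the median of all genes. All genes were not matched to the members by muscle level. The median of mean muscle CPM was 0.103 over all genes in the table and 17.9 over the 73 members. Nuclear genes above 10 and up to 100 CPM in muscle had medians of 32.7 CPM in mitochondria and 23.4 CPM in muscle. Mrpl genes counted 9 higher and 15 lower of 43 tested (median -0.04), and Mrps genes 7 higher and 11 lower of 29 (median -0.37). With Mrps30 and Mrps18a placed in the large subunit and Mrps36 left out, the counts were 9 higher and 16 lower of 45 (median -0.15) for the large and 7 higher and 10 lower of 26 (median -0.15) for the small subunit.

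The split between the directions depended on the scaling. TMM factors, which place the trimmed mean of gene ratios at 0, moved the median of all genes by -2.10 on the log2 scale, and 2 members were then higher and 69 lower (63.0% and 30.3% of all genes tested). Scaled to nuclear counts, 22 members were higher and 26 lower (85.6% and 9.29% of all genes). Relative to mitochondrial genome counts, 12 were higher and 7 lower (80.9% and 4.34% of all genes), and these 12 and 7 were also called with total counts. Scaling works per library, so members did not all move alike: TMM factors moved single members by -2.12 to -2.05, nuclear counts by 0.03 to 0.10, and mitochondrial genome counts by 0.01 (Mrpl20) to 0.55 (Mrps22) on the log2 scale.

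**Figure D2:**
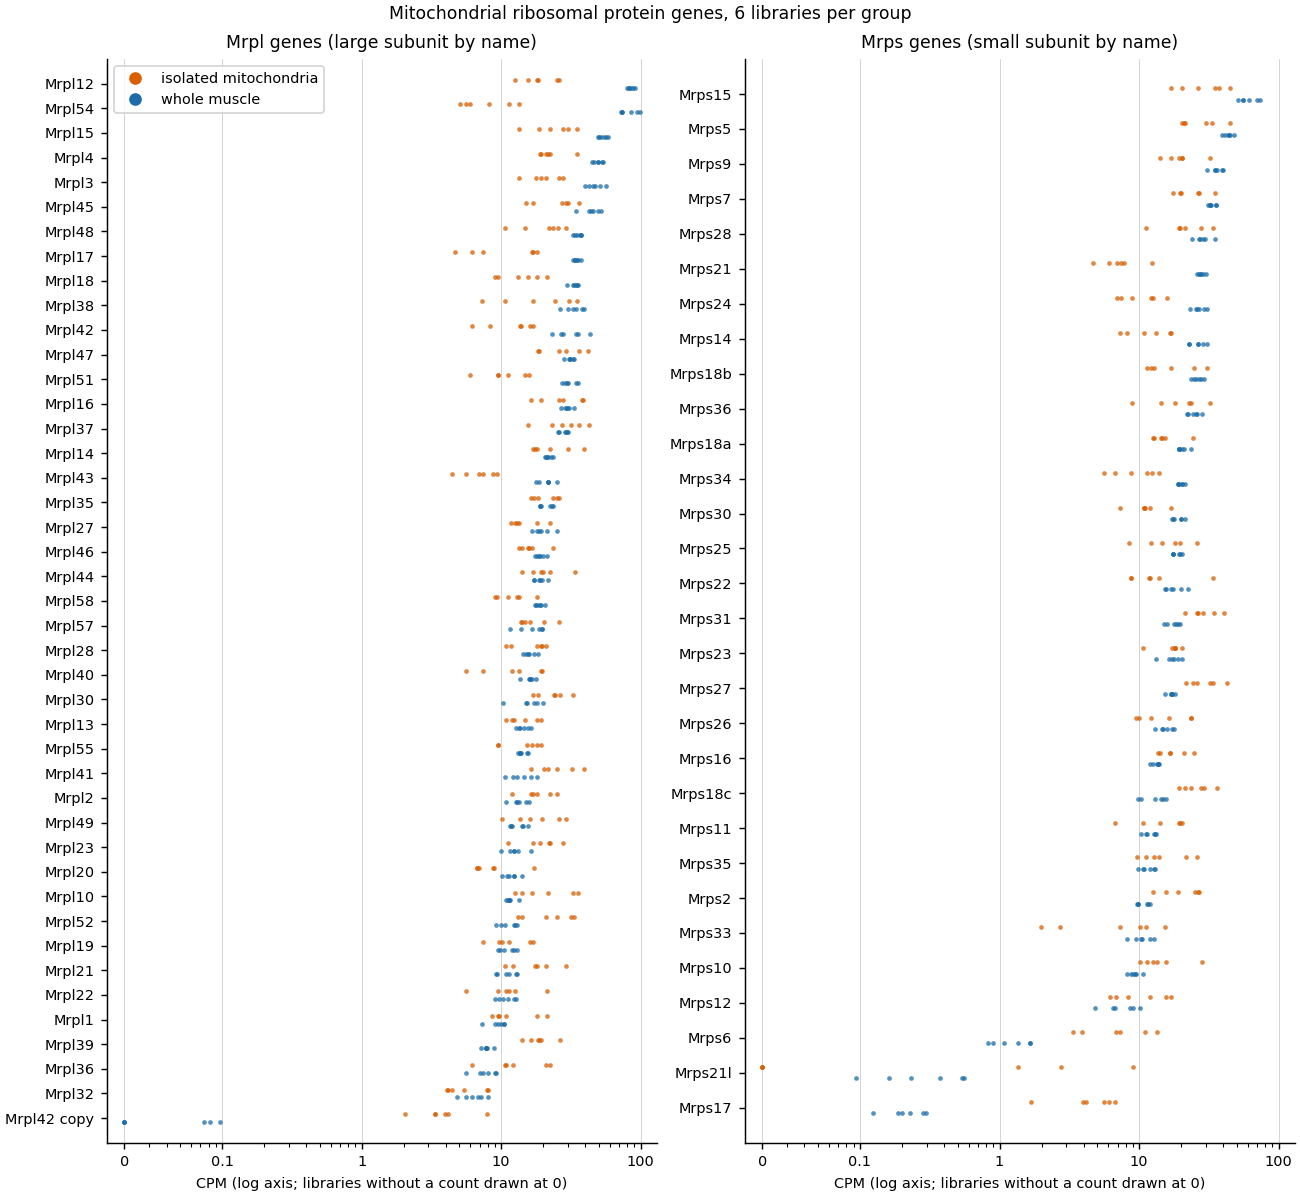
CPM of each member (log axis, 1 point per library, libraries without a count drawn at 0), orange for mitochondria and blue for muscle, ordered by muscle mean with Mrpl genes left and Mrps genes right. The orange points of most members lie between 5 and 50 CPM, while the blue points span from about 0 to 98.1 CPM. The 3 members above 0 and up to 1 CPM in muscle lie lower, with a median of 4.13 CPM in mitochondria over their means.

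The 2 large-subunit genes with the highest muscle CPM were also the ones that fell furthest. Mrpl54, a protein found in mitochondrial ribosomes and not in bacterial ones, had a lowest value of 5.04, a median of 7.06 and a highest value of 13.5 CPM in mitochondria, against 72.1, 79.4 and 98.1 CPM in muscle. The log2 fold change was -3.35 ± 0.22 (SE, adjusted p = 2.17e-24). Mrpl12, which forms the flexible stalk that contacts translation factors and also binds the mitochondrial RNA polymerase, had 12.6, 18.3 and 25.9 CPM in mitochondria, against 79.3, 83.6 and 90.4 CPM in muscle (log2 fold change -2.19 ± 0.19, adjusted p = 2.80e-18). The groups of these genes were far apart, and every mitochondria library lay below every muscle library. Mrpl10, which anchors that stalk on the ribosome, differed in direction: it ran from 12.5 to 35.7 CPM in mitochondria, against 10.9 to 13.4 CPM in muscle, overlapped between groups and was higher in mitochondria, at 0.93 ± 0.21 (adjusted p = 4.17e-05). With TMM factors Mrpl10 was lower, at -1.16.

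Other members of the large subunit that are conserved with bacteria were mixed. Mrpl15 had 13.4, 25.1 and 34.9 CPM in mitochondria as lowest, median and highest value, against 49.8, 53.3 and 58.0 CPM in muscle. Its groups did not overlap, and its log2 fold change was -1.17 ± 0.19 (adjusted p = 3.05e-08). Mrpl3 and Mrpl4, which contact the ribosomal RNA near the catalytic centre in bacteria, had log2 fold changes of -1.20 and -1.15, and Mrpl17 and Mrpl18 of -1.67 and -1.29. All 4 passed the test as lower. In these 4 genes, too, no mitochondria library reached the muscle range. Mrpl2, a core protein near the same centre, had a log2 fold change of 0.42 (adjusted p = 0.0533), and Mrpl13, Mrpl14, Mrpl16, Mrpl19, Mrpl28 and Mrpl35 lay between -0.15 (Mrpl16) and 0.10 (Mrpl14) without passing the test.

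Around the tunnel through which the new protein leaves, 4 members had different directions. Mrpl23 was higher in mitochondria at 0.61 ± 0.21, Mrpl22 had 0.11 ± 0.24 (adjusted p = 0.646), and Mrpl45, which ties the ribosome to the inner membrane, was lower at -0.84 ± 0.19. Mrpl47 had 18.5, 27.5 and 41.8 CPM in mitochondria, against 28.1, 31.2 and 33.3 CPM in muscle, with a log2 fold change of -0.17 ± 0.19 (adjusted p = 0.390). The muscle range of Mrpl47 lay inside its mitochondria range, and it was lower in mitochondria in 3 of 6 rats.

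Among mitochondria-specific proteins of the large subunit, Mrpl37 and Mrpl39 differed. Mrpl37, which had the highest mean CPM in mitochondria of the Mrpl genes, had 15.7, 29.5 and 42.8 CPM in mitochondria, against 25.7, 28.9 and 29.9 CPM in muscle, a log2 fold change of 0.01 ± 0.19 (adjusted p = 0.962). Mrpl39 had 14.2, 18.5 and 26.4 CPM in mitochondria, against 7.22, 7.84 and 8.87 CPM in muscle, with every mitochondria library above every muscle library (log2 fold change 1.21 ± 0.22, adjusted p = 4.91e-07). With TMM factors Mrpl37 was lower at -2.11 and Mrpl39 at -0.87, both past the threshold. Mrpl52 and Mrpl41 rose by 0.96 and 0.83 on the log2 scale, while Mrpl43, Mrpl51, Mrpl48 and Mrpl38 were lower, at -1.56, -1.52, -0.81 and -0.80. Mrpl58, a hydrolase that frees peptides from stalled ribosomes, was lower at -0.61 (adjusted p = 0.00645). Mrpl27 was lower at -0.46 with an adjusted p of 0.0346, and of 0.0599 in the paired fit with the rat as a replicate block. Of the other large-subunit genes, Mrpl30, Mrpl21 and Mrpl36 were higher, at 0.53, 0.65 and 0.74. Mrpl40, Mrpl20, Mrpl32, Mrpl55, Mrpl57, Mrpl44, Mrpl1 and Mrpl49 did not pass, with values between -0.38 (Mrpl40) and 0.44 (Mrpl49).

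The 3 genes whose names are written in lower case in the table fell outside the naming rule. They were mrpl9, mrpl11 and mrpl24, with log2 fold changes of -0.29 ± 0.19 (adjusted p = 0.145), -0.47 ± 0.23 (adjusted p = 0.0447) and -0.54 ± 0.22 (adjusted p = 0.0183). In the paired fit with the rat as a replicate block, mrpl11 did not pass (adjusted p = 0.0686).

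In the small subunit, conserved proteins gave both the largest falls and the largest rises. Mrps21 had a lowest value of 4.66, a median of 7.18 and a highest value of 12.4 CPM in mitochondria, against 26.1, 27.6 and 30.3 CPM in muscle (log2 fold change -1.93 ± 0.23, adjusted p = 2.36e-12). Mrps24 had 6.94, 10.5 and 15.8 CPM in mitochondria, against 23.2, 26.4 and 30.7 CPM in muscle (-1.34 ± 0.22, adjusted p = 2.86e-08). In both genes all mitochondria libraries lay below all muscle libraries. Mrps15, with the highest mean CPM of the Mrps genes in both groups, had 16.8, 30.7 and 45.2 CPM in mitochondria, against 51.4, 58.5 and 72.9 CPM in muscle (-1.05 ± 0.19, adjusted p = 4.29e-07). Mrps15 did not overlap between groups either.

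Mrps5 and Mrps9, further conserved proteins, were lower but overlapped. Mrps9 had 14.0, 19.8 and 31.9 CPM in mitochondria, against 30.8, 35.6 and 39.7 CPM in muscle (log2 fold change -0.87 ± 0.19, adjusted p = 2.08e-05), and only mitochondria replicate 1 reached the muscle range. Mrps5 had 20.3, 25.8 and 45.0 CPM in mitochondria, against 39.1, 43.9 and 48.0 CPM in muscle (-0.63 ± 0.18, adjusted p = 0.00112), and was lower in 5 of 6 rats. Mrps14 and Mrps7, which is a conserved protein that binds the ribosomal RNA of the small subunit, were lower at -1.19 and -0.49. Mrps34, Mrps30 and Mrps28 were lower too, at -1.11, -0.77 and -0.40. Mrps12, a protein of the decoding centre, had 0.48 ± 0.27 (adjusted p = 0.0763) and Mrps16 had 0.40 ± 0.21 (adjusted p = 0.0588). Both were higher past the threshold with nuclear counts as library size, as were Mrps35, Mrpl1, Mrpl2 and Mrpl49. Of the others, Mrps22, Mrps23, Mrps25, Mrps26, Mrps33 and Mrps36 did not pass, with values between -0.52 (Mrps33) and -0.04 (Mrps23).

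The rises of the small subunit included genes with almost no muscle reads. Mrps17, a conserved protein that binds ribosomal RNA, had 1.68, 4.90 and 6.74 CPM in mitochondria, against 0.123, 0.214 and 0.296 CPM in muscle, from 36 and 38 counts over the 6 libraries of each group (log2 fold change 4.34 ± 0.43, adjusted p = 1.49e-15). The low-count filter works on CPM, and Mrps17 passed it only through mitochondria, the group where it was high. It had 3 to 10 counts per mitochondria library and 3 to 9 per muscle library. Its p-value is therefore no support for the rise. Mrps6 had 3.37, 7.05 and 13.5 CPM in mitochondria, against 0.823, 1.22 and 1.66 CPM in muscle (2.49 ± 0.36, adjusted p = 1.30e-09). Neither overlapped between groups. Their means in mitochondria, 4.72 CPM for Mrps17 and 7.67 CPM for Mrps6, lay between the quartiles of nuclear genes with no muscle count (1.32 and 8.82 CPM). Both fold changes lay below the median of all genes tested (4.61). With TMM factors Mrps17 was still higher, at 2.26, and Mrps6 did not pass, at 0.37 (adjusted p = 0.220). Mrps27, a mitochondria-specific RNA-binding protein with muscle reads, had 21.8, 28.9 and 42.8 CPM in mitochondria, against 15.4, 17.0 and 18.1 CPM in muscle (0.80 ± 0.19, adjusted p = 6.25e-05), without overlap. With TMM factors it was lower, at -1.31. Mrps2, Mrps31 and Mrps10 were higher by 0.98, 0.73 and 0.67 on the log2 scale with total counts.

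The 3 Mrps18 genes encode related proteins that occupy different places on the ribosome. Mrps18c had 19.3, 25.7 and 36.0 CPM in mitochondria, against 9.77, 13.7 and 15.5 CPM in muscle, and rose by 0.98 ± 0.20 without overlap (adjusted p = 5.29e-06). Mrps18b ran from 11.3 to 30.6 CPM in mitochondria, against 23.6 to 29.3 CPM in muscle, and was lower at -0.64 ± 0.21 on the log2 scale (adjusted p = 0.00299). Mrps18a had -0.39 ± 0.20 (adjusted p = 0.0641).

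**Figure D3:**
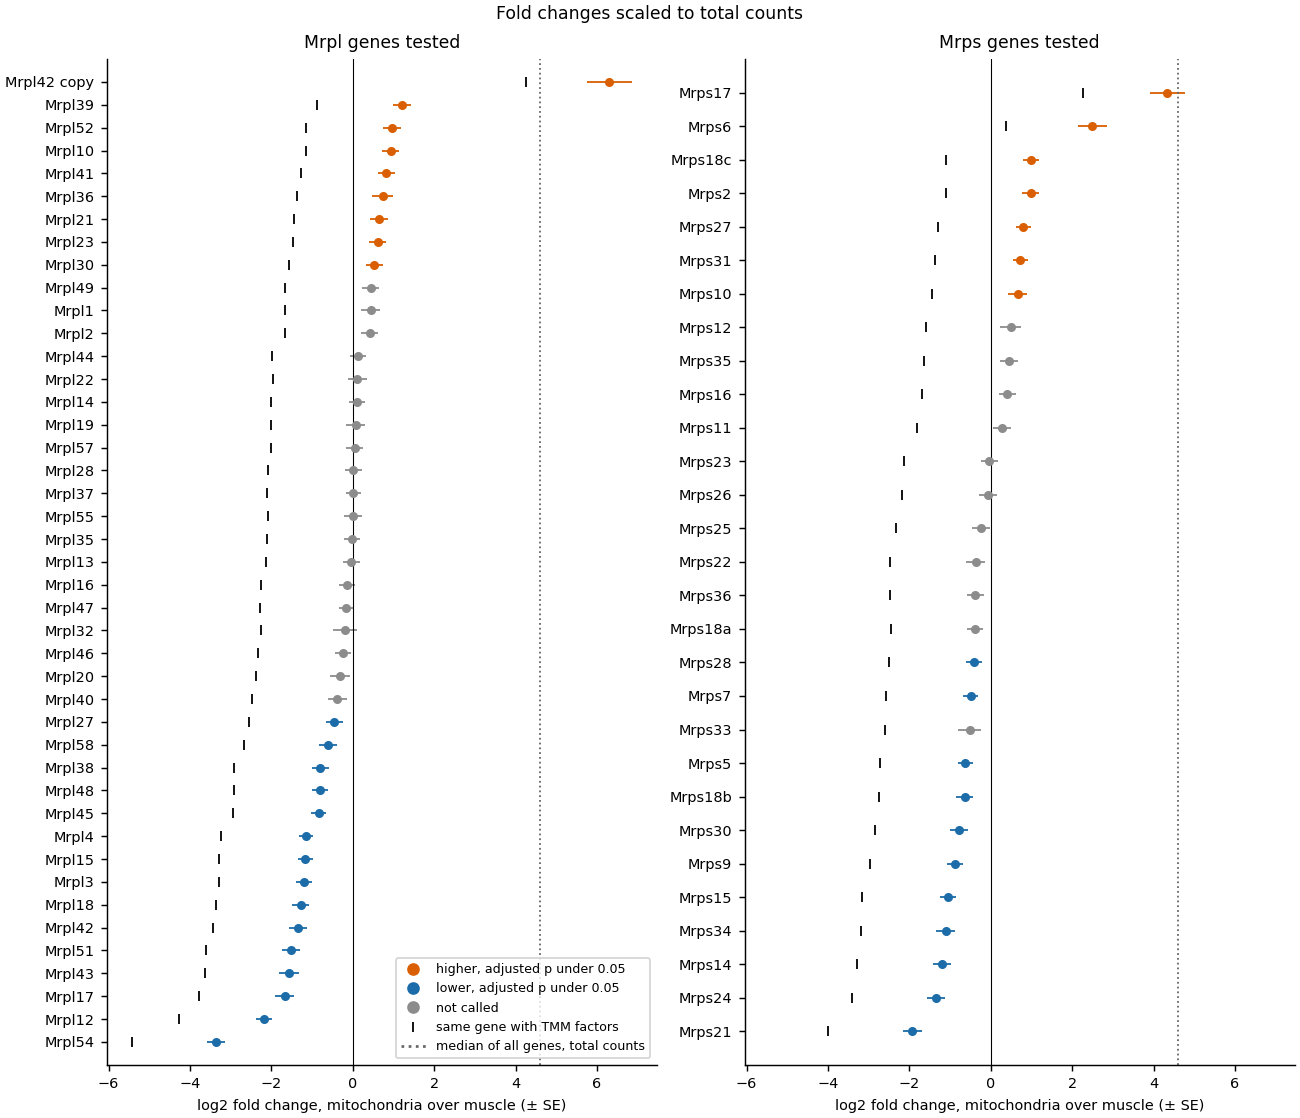
Log2 fold change (mitochondria over muscle, total counts, ± SE) of the 72 tested members, Mrpl genes left and Mrps genes right, coloured by call, with black ticks for the same gene under TMM factors and a dotted line at the median of all genes (4.61). Values run from -3.35 (Mrpl54) to 6.30 (the Mrpl42 copy), and the TMM ticks lie to the left of the points by about the same amount.

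The rows of the repeated name Mrpl42 had opposite directions. The row of Mrpl42 with most muscle reads (ENSRNOG00000042740) had 6.16, 13.8 and 16.9 CPM in mitochondria, against 23.3, 31.0 and 43.0 CPM in muscle, and was lower at -1.35 ± 0.22 on the log2 scale (adjusted p = 3.41e-08). The second row (ENSRNOG00000025964) had 2.03, 3.68 and 7.88 CPM in mitochondria, against 0, 0.0370 and 0.0974 CPM in muscle, from 30 and 7 counts, and rose by 6.30 ± 0.55 (adjusted p = 4.09e-18). With 3 to 7 counts per mitochondria library and 0 to 3 per muscle library, it passed the low-count filter only through mitochondria. Its p-value is therefore no support for the rise. This second row was the single member above the median of all genes tested. Mrps21l, a gene named as similar to Mrps21, had 12 counts in mitochondria and 53 in muscle, and ran from 0 to 9.01 CPM in mitochondria, against 0.0936 to 0.555 CPM in muscle. It was not tested, and 8 of its 12 counts in mitochondria came from replicate 3. Reads of near-identical copies can be split or moved between them in counting. RefSeq (assembly GRCr8) lists 40 pseudogenes named after such genes, for 23 of the 72 member names, so the copies' values are uncertain.

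The 30 tested members that did not pass lay between -0.52 (Mrps33) and 0.48 (Mrps12) on the log2 scale. Their median SE was 0.21, which makes a 95% interval of about 0.42 on either side, so changes of that size could not be resolved for a typical gene. Of the 42 called members, 30 had the same direction in all 6 rats, 19 of the 26 lower ones and 11 of the 16 higher ones. Of the 30 not called, 1 did. The calls were made on the same libraries, so these counts are no independent support. The share over all genes was not counted. Replicates varied by a median of 33.1% of the mean in mitochondria and 10.4% in muscle, where counting error alone gives 21.8% and 4.39%. Scaled to nuclear counts, the variation was 24.2% in mitochondria and 12.2% in muscle. Mrpl46 and Mrps11, which RefSeq lists next to each other in the genome, had -0.25 ± 0.20 and 0.27 ± 0.23 (adjusted p = 0.232 and 0.246).

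Members differed far less from each other in mitochondria than in muscle. Over the 72 tested, mean CPM spanned 4.13 to 30.1 in mitochondria and 0.0423 to 84.4 in muscle, and the SD of log2 mean CPM was 0.64 in mitochondria and 1.58 in muscle. For the 69 members with at least 5 CPM in muscle, these SDs were 0.55 and 0.83. Across genes, which share libraries and depth and are not independent replicates, log2 levels in mitochondria and in muscle had a Pearson correlation of 0.57 over the 72 members and of 0.26 over the 69. Of the 17 members at 30 CPM or more in muscle, 16 were lower in mitochondria and none higher, with Mrpl47 not called. Of the 9 under 10 CPM, 6 were higher and none lower. Of all genes tested, 84.3% were higher and 9.03% lower, and their shares at these muscle levels were not counted. Among the members, the direction of a call thus followed the muscle value, which enters both quantities. Whether this is particular to the members was not tested. The median in mitochondria was 20.8 CPM for those 17 and 10.9 CPM for those 9, and the median in muscle was 36.0 and 7.67 CPM.

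Over all nuclear genes, the median in mitochondria was higher at each higher muscle level. The 10014 nuclear genes with no count in muscle had a median of 3.73 CPM in mitochondria (quartiles 1.32 and 8.82). The 8526 genes above 0 and up to 1 CPM in muscle had a median of 13.1 CPM in mitochondria, and the 5419 above 1 and up to 10 CPM had 24.7 CPM. The 72 tested members had a median of 16.9 CPM in mitochondria (quartiles 12.3 and 21.3). The 5843 nuclear genes above 10 and up to 100 CPM in muscle had a median of 32.7 CPM in mitochondria (quartiles 22.0 and 48.5), against 23.4 CPM in muscle, while the 63 members in that range had 18.1 CPM in mitochondria and 19.1 CPM in muscle. The 658 genes above 100 and up to 1000 CPM in muscle had 36.1 CPM in mitochondria, and the 63 genes above that had 53.0 CPM. These are read shares without a correction for length, and no test was made between the sets.

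**Figure D4:**
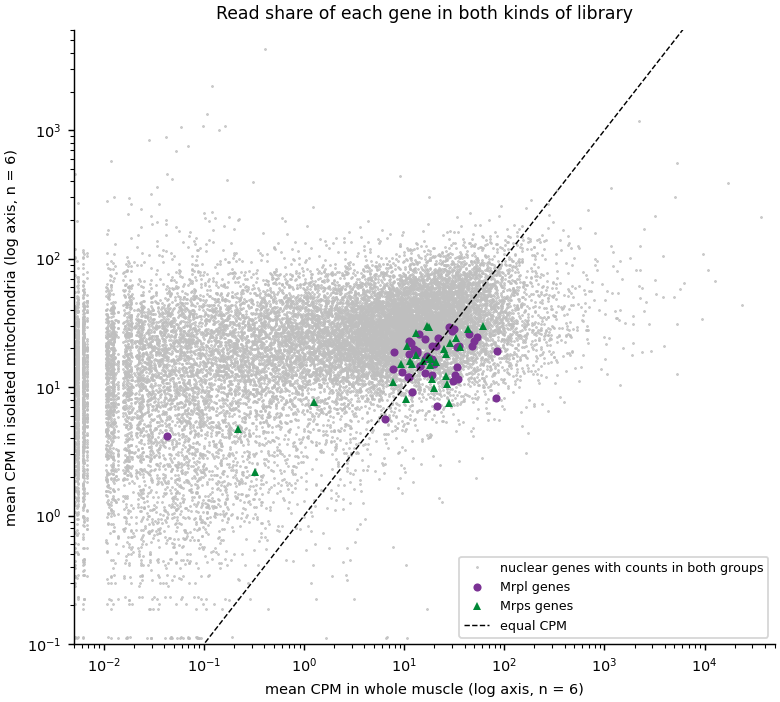
Mean CPM in mitochondria (vertical) against mean CPM in muscle (horizontal), both log axes, n = 6 libraries each, for nuclear genes (grey), Mrpl genes (purple circles) and Mrps genes (green triangles), with a dashed line at equal CPM. Members with at least 5 CPM in muscle form a band between 5.66 and 30.1 CPM in mitochondria that crosses the dashed line.

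Other genes of the same pathway were read beside the members, with counts in place of a test of the lists. Of 5 ribosome subunits that go by other names, Dap3 was higher in mitochondria (31.7 ± 8.53 CPM in mitochondria and 13.6 ± 0.546 CPM in muscle, SD, n = 6 each, log2 fold change 1.18 ± 0.19 SE). Chchd1 was lower (7.38 ± 4.40 CPM in mitochondria and 29.6 ± 3.59 CPM in muscle, -2.06 ± 0.25), as was Gadd45gip1 at -1.16, and Ptcd3 and Aurkaip1 did not pass, at 0.22 and -0.22. Factors that assemble the mitochondrial ribosome or modify its RNA counted 20 higher and 1 lower of 24 tested, with a median of 1.20, against 84.3% higher, 9.03% lower and a median of 4.61 for all genes tested. The one that was lower was Oxa1l, the insertase that receives new proteins at the inner membrane, at -1.16. Translation factors of mitochondria counted 6 higher and 2 lower of 13, with a median of 0.37, beside the same shares of all genes. The lower ones were the elongation factors Tufm and Gfm1, at -2.09 and -1.40. With TMM factors the assembly list counted 2 higher and 15 lower and the translation list 0 higher and 11 lower, with medians of -0.89 and -1.76, against 63.0% higher and 30.3% lower of all genes tested.

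Proteins of the cytosolic ribosome counted 9 higher and 69 lower of 84 tested, with a median log2 fold change of -1.90, and nuclear-encoded subunits of oxidative phosphorylation 10 higher and 69 lower of 80, with a median of -3.28, where 84.3% of all genes tested were higher and 9.03% lower. The higher rows included second rows of repeated names, such as Rps6 at 6.87 and Atp5mc1 at 10.4. They also included Cox6c-ps1, named as a pseudogene, at 9.38. The caution on copies given for Mrpl42 holds for such rows too. Over all rows of these lists, 107 and 82 with the untested ones, the median mean CPM was 12.6 and 13.0 in mitochondria, against 42.7 and 117 in muscle. The 73 members had 16.7 in mitochondria and 17.9 in muscle. The lists were thus close together in mitochondria and far apart in muscle, as shares of reads. Whether the lists differ was not tested.

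**Figure D5:**
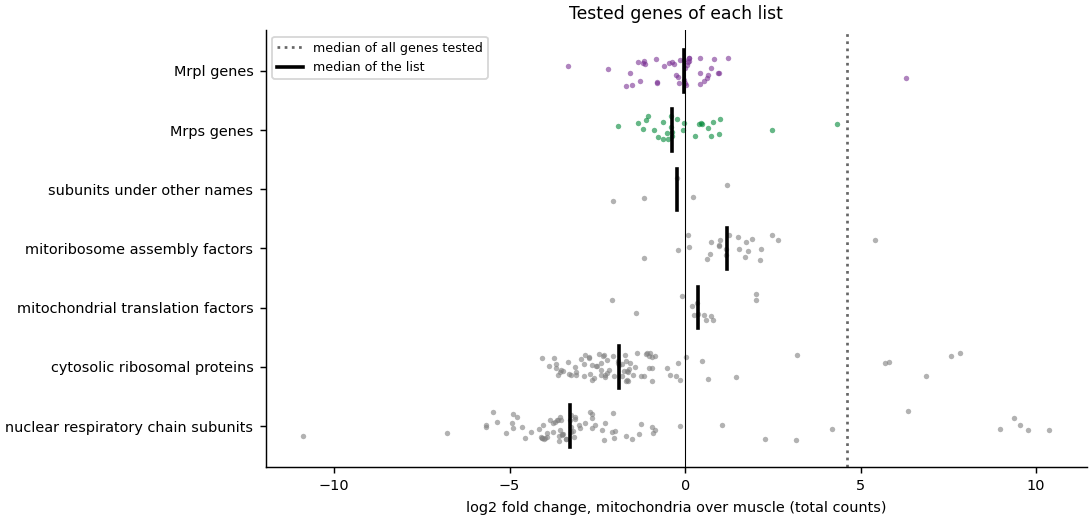
Log2 fold changes (mitochondria over muscle, total counts) of the tested genes of each list, 1 point per gene with the list's median as a bar and the median of all genes (4.61) as a dotted line; points are spread vertically for sight only. Medians run from 1.20 for assembly factors to -3.28 for nuclear respiratory chain subunits, with Mrpl genes at -0.04 and Mrps genes at -0.37.

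Promoters of 56 of the 72 member names were in a RefSeq table of assembly GRCr8, as the 250 bases before and 50 after each gene start. Nuclear genes for mitochondrial proteins are known to be activated by the factors NRF1, GABPA and YY1, so a core motif of each was searched on both strands. The YY1 core AAGATGGC was present in 14 of the 56 promoters (25%), against 3.17% of all 33469 promoters in the table. The GABPA core CCGGAAGT was in 7 (12.5%), against 3.81% of all, and the NRF1 core GCGCATGC in 5 (8.93%), against 2.47% of all. Mean GC content was 55.9% over the members' promoters and 52.7% over all promoters. All promoters in the table served as background, without matching to the members by kind of gene, expression or GC content. By call in mitochondria against muscle, with Mrpl42 left out, the YY1 core was in 4 of 14 promoters of higher genes, 4 of 19 of lower genes and 5 of 22 of genes not called. The GABPA core was in 3 of the 14, 3 of the 19 and 1 of the 22, and the NRF1 core in 0, 2 and 3 of them. The YY1 and GABPA cores thus stood beside genes of every direction, and no test was made. For each subunit by name, the gene with a motif that rose most and the one that fell most are shown, in lower case with the motif in capitals (the NRF1 core in Mrpl17, 3 times, of which 2 overlap on opposite strands, the GABPA core on the opposite strand in Mrpl52, and the YY1 core in Mrps30 and Mrps6). Their log2 fold changes were 0.96 for Mrpl52, -1.67 for Mrpl17, 2.49 for Mrps6 and -0.77 for Mrps30.
Mrpl52 promoter, chr15:31852686-31852985, plus strand: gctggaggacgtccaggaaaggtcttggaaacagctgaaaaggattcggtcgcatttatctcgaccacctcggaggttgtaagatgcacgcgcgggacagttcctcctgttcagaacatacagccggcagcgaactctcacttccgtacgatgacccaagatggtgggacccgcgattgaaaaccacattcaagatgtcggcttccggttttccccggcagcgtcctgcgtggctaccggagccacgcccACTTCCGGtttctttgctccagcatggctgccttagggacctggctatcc
Mrpl17 promoter, chr1:169575650-169575949, minus strand: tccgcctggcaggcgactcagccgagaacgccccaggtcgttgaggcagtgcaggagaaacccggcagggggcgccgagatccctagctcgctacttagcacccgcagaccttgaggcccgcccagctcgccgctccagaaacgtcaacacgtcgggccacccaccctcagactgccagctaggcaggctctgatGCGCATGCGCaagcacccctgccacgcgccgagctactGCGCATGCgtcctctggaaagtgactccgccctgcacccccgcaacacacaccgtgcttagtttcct
Mrps6 promoter, chr11:44778417-44778716, plus strand: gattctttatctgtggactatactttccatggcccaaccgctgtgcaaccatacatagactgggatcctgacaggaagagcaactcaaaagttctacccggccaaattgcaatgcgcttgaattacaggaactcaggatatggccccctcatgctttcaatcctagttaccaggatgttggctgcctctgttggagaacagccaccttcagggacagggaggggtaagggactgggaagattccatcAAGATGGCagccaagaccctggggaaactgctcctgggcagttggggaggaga
Mrps30 promoter, chr2:52195855-52196154, minus strand: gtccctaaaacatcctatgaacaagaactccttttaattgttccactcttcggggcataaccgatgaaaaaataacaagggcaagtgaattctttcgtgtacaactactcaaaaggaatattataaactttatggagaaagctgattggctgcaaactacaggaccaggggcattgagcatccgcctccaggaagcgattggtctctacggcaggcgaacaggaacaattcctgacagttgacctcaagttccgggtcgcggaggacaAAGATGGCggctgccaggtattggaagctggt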

How the data were processed

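Libraries of 6 rats were compared, 1 of isolated mitochondria and 1 of whole muscle from each. Ribosomal RNA was removed with a kit, starting with 10 ng of mitochondrial and 50 ng of muscle RNA, per the labels' protocols. The authors deposited raw read counts per gene. STAR 2.7.11a, HTSeq, cutadapt 4.6, FastQC 0.74 and the build mRatBN7.2 stand in the submitters' processing notes. Strand setting, handling of reads with several matches and annotation release: not given in the sources used here. Whether reads of overlapping genes on opposite strands were told apart is therefore not known.

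The test was edgeR 4.0.16's quasi-likelihood test (R 4.3.3) on all genes that passed filterByExpr (minimum count 10). Library size was the total count, so that fold changes share the scale of the CPM values; the model held the group alone, and p-values were adjusted by Benjamini-Hochberg over all genes (threshold 0.05). Log2 fold changes are mitochondria over muscle, and the SE is their absolute value over the square root of F. The fit was tested on simulated data in which most genes were unchanged. In the real data most genes were called, so the simulation does not speak to the choice of scaling. Alternatives were TMM and RLE factors, nuclear or mitochondrial genome counts as library size, no filter, DESeq2 1.42.0, thinning, a replicate block and leaving out each library. Replicate numbers pair the groups, since in the labels both libraries with 1 number come from 1 animal. Deviations from the group means correlated between -0.010 and 0.020 within pairs. Members and lists were chosen with earlier results of these data known. Genes given with full values were all rows of a repeated name and, per subunit, the 3 with most muscle CPM, the 2 with most mitochondria CPM and the 2 largest rises and falls. Other members, Mrps18c with its full values among them, are named by role, after their values were seen. Depth limits the precision of CPM, and SEs cover the spread between these libraries.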

Additional observations from a re-analysis of the deposited data

Results flagged for a closer look

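In mitochondria replicate 1, Mrps9 had 31.9 CPM, far above the other 5 mitochondria libraries, with a gap to the nearest of 0.651 of the whole range. The second Mrpl42 row had 7.88 CPM in mitochondria replicate 3, with a gap of 0.635 of the range. Both passed the limit of Dixon's test at 95% for 6 samples. Of the 42 groups of values checked, chance would set about 1 in 20 apart in this way.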

How the results depend on the processing

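With total counts, 16 members were higher and 26 lower in mitochondria, where 84.3% and 9.03% of all genes tested were higher and lower. With TMM factors the counts were 2 and 69 (63.0% and 30.3% of all genes tested), with RLE factors 3 and 69, and with DESeq2 3 and 69. The median log2 fold change of all genes tested was 2.88 with RLE and 2.90 with DESeq2. Shares of all genes called were not counted for RLE, DESeq2, thinning and leaving out libraries. Relative to mitochondrial genome counts 7 were lower (4.34% of all genes tested). Relative to total counts, TMM, RLE and DESeq2 moved the median of all genes by -2.10, -1.73 and -1.71. Mrpl37, Mrpl39 and Mrps27 turned to -2.11, -0.87 and -1.31 with TMM, to -1.74, -0.50 and -0.94 with RLE, and to -1.74, -0.51 and -0.94 with DESeq2. Mrpl47 turned to 0.19 relative to mitochondrial genome counts. Mrpl37 had -0.0030 in the paired fit with a replicate block, and -0.12 to 0.15 with single libraries left out. The block gave 16 higher and 25 lower (20750 and 2211 of all 24679 genes tested), and Mrpl27 was the only member whose call it changed. Leaving out single libraries gave 16 to 22 higher and 24 to 29 lower. Thinned to 573903 nuclear counts per library, 61 members were tested, with 11 higher and 22 lower. Mrps6, Mrps17 and the second Mrpl42 row were not among these 61, so their rises were not tested at equal depth. The 14973 genes tested after thinning had a median log2 fold change of 2.26. Depth limits the mitochondria side, where tested members had 30 to 225 counts over 6 libraries. Without Mrpl12 and Mrpl54, an alternative chosen after seeing the data, the difference in mean Mrpl share, mitochondria minus muscle, was -0.58 percentage points, against -3.81 with all members.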
